A study of Xenopus laevis with 27 samples.

Results

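Amputated tails of the frog Xenopus laevis taken 90 minutes after amputation (90 mpa, minutes post amputation) were compared with amputated tails taken at 0 minutes (0 mpa). The comparison uses 6 of the 27 bulk RNA-sequencing libraries of a tail regeneration time course, 3 at 90 mpa and 3 at 0 mpa, lettered A, B and C and chosen by the time in their labels. Each library pooled 20 embryos of the regenerative stage and started from 100 ng of total RNA. The labels give no genotype or agent beyond the amputation, which both groups carry, so no uncut tail enters the comparison. The libraries of a time are called biological triplicates with no word on whether separate clutches were used. P-values therefore measure the spread among libraries of the same time, estimated over all 27 libraries, and that spread may be technical.

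Tadpoles of this frog regrow a cut tail with its spinal cord, notochord and muscle, after an epidermis has closed over the wound. In the first hours after an injury, animal cells switch on immediate early genes, whose transcription uses factors already present and needs no new protein. Many of these genes encode transcription factors such as the AP-1 proteins (dimers of Fos and Jun), and others encode feedback inhibitors that end the signal, secreted growth factors, cytokines and proteases. This species carries a duplicated genome, and many genes have a copy ending in .L (long chromosomes) and another ending in .S (short chromosomes). The sequences of a pair resemble each other and counting may have divided their reads, while the strand setting of the counting is not stated in the sources used here.

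The libraries 90 mpa A, B and C held 4733475, 6258495 and 367958 counts, against 4356539, 4739923 and 5114908 counts in 0 mpa A, B and C. Library 90 mpa C stood apart in more than depth. It showed 10522 genes, while at the same depth 17397 would be expected from 90 mpa A, 16514 from 90 mpa B and 17317 to 17598 from the 0 mpa libraries. At that depth 3 dpa B, left out in 1 alternative as low-complexity, would show 16707, above 90 mpa B. At a larger common depth, which 90 mpa C does not reach, 21263 and 20941 genes would be expected from 90 mpa A and B. It would be 21338 to 23038 at 0 mpa, 22543 to 23483 at 60 mpa and 23954 to 24127 at 3 hours. What these lower gene numbers add to the lower calls and later comparisons was not tested. Across genes, and so not over independent replicates, Pearson's r of log2 CPM (counts per 1000000, scaled with TMM factors) was 0.689 and 0.716 between 90 mpa C and the other libraries of its time, 0.852 between 90 mpa A and B, and 0.874 to 0.904 between 0 mpa libraries. A single read in 90 mpa C is worth 3.02 CPM, so a value of 0 there is a weak measurement where few reads are due. Not all zeros were of that kind. Of 365 genes called higher without 90 mpa C and with at least 10 reads due there, 21 had no read in it. Among all genes tested with that many reads due it was 348 of 5199. The cause of these zeros was not tested. The counts of genes called are therefore given with 90 mpa C and without it, and a named gene has its value without it where that ends the call or moves the fold change by over 1.5 times. The naming rule, given at the end, required 90 mpa A and B to lie on 1 side of all 0 mpa libraries. For genes named by it, that lack of overlap was set by the choice and is no support for the calls. For genes named after their values were seen, the overlap was known before the choice and is no support either.

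At 90 mpa 584 of 22268 genes tested were higher (2.62%) and 168 were lower (0.754%) than at 0 mpa, at an adjusted p under 0.05 by edgeR's quasi-likelihood test with Benjamini-Hochberg adjustment. Without 90 mpa C 509 of 23281 genes were higher (2.19%) and 112 were lower (0.481%). Of the 584 higher genes 430 were also called higher without that library, and of the 168 lower genes 90 were also called lower. The median log2 fold change was 2.25 among the higher genes and -2.43 among the lower genes, beside -0.09 over all genes tested. A change of at least 3 on the log2 scale was reached by 196 higher genes. All 3 libraries of 90 mpa lay above all 3 of 0 mpa for 465 of the 584 higher genes, beside 1440 of all genes tested (6.47%), and below them for 166 of the 168 lower genes, beside 2802 of all genes tested (12.6%). The same 6 libraries entered the calls, so this lack of overlap was largely set by them and is no support for them. A 0 in 90 mpa C, as in 12870 of the 23281 genes, raises the shares below.

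Both counts depended on single libraries, the lower one by the wider ratio. The number of higher genes lay between 322 (without 0 mpa A) and 755 (without 90 mpa A), and it was 326 without 0 mpa B. The number of lower genes lay between 62 (without 0 mpa B) and 457 (without 90 mpa A), was 64 without 0 mpa A, 99 without 0 mpa C and 112 without 90 mpa C. With 90 mpa B left out 177 genes were lower, but only 43 of these were among the 168. A fit of the 6 libraries alone called 222 genes higher and 11 lower. DESeq2 called 741 higher and 375 lower. Of the 168 lower genes 119 had no read in 90 mpa C, beside 12870 of the 23281 genes tested without that library, and 38 had no read in any 90 mpa library. Their median level at 0 mpa was 16.6 CPM, beside 11.7 CPM for the higher genes.

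**Figure D1:**
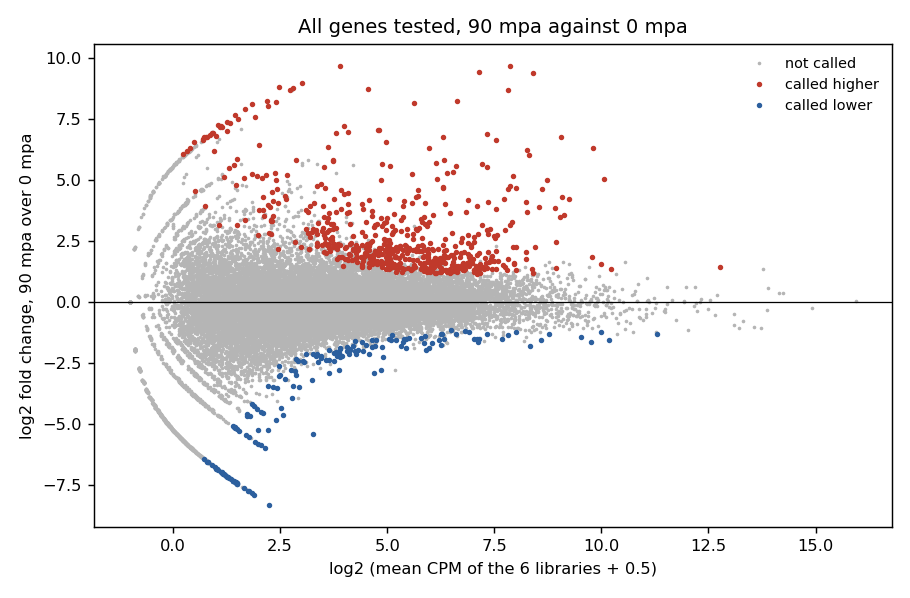
Each point is a gene tested: the horizontal axis is the log2 of its mean level over the 6 libraries (CPM + 0.5) and the vertical axis its fitted log2 fold change, 90 mpa over 0 mpa. The 584 higher genes (red) reach 9.66 while the 168 lower genes (blue) lie mostly at low levels, and the curved edges are genes with no read at 1 of the times, whose fitted values depend on the prior count.

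The genes called without 90 mpa C were also looked up in it. Among the 509 genes called higher without it, 343 (67.4%) had more CPM in 90 mpa C than in the highest 0 mpa library, beside 4425 of all 23281 genes (19.0%). No read was found there for 96 of the 509 and 12870 of the 23281 genes, which lowers both shares. Among genes with at least 10 reads due in 90 mpa C at the A and B level, the share was 284 of 365 (77.8%), beside 1885 of 5199 (36.3%). Only 295 of these 365 genes lay above the 0 mpa mean in 90 mpa C. Their median log2 ratio to that mean was 1.99 in 90 mpa A and B and 1.69 in 90 mpa C. These 509 genes summed to 58150, 64671 and 59377 CPM in 90 mpa A, B and C, against 10704, 9867 and 12331 CPM in 0 mpa A, B and C, sums to which genes of many reads contribute most. Among the 112 genes called lower without 90 mpa C, 96 (85.7%) lay below the lowest 0 mpa library in it, beside 13231 of 23281 (56.8%). No read was found there for 71 of the 112. With at least 10 reads due at the 0 mpa level it was 20 of 24 genes, beside 2753 of 4898 (56.2%). The same 0 mpa libraries chose the genes, so these values describe 90 mpa C and are no independent check of the calls.

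Transcription factors of the early response made up the group with the most members called. Of 63 tested members 45 rose (41 without 90 mpa C), beside 2.62% of all genes, and the median log2 fold change was 2.77. None was called lower, also by DESeq2 and at an unadjusted p under 0.05 (0 of 63). Over all genes 3827 of 22268 had such a p by edgeR, both directions together. Leaving out 1 library gave 37 to 42 higher members. Summed over the list, the level was 11239.5, 11918 and 12837 CPM in the 90 mpa libraries, against 975, 809 and 1007 CPM in the 0 mpa libraries.

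Genes of the Fos family, which pair with Jun proteins to form AP-1, had the largest fitted fold changes among named genes with reads at both times. fos.L had 483, 442 and 426 CPM in 90 mpa A, B and C, against 1.92, 0 and 1.30 CPM in 0 mpa A, B and C. Every 90 mpa value lay above every 0 mpa value, and the log2 fold change was 8.66 ± 0.60 (9.30 without 0 mpa A) (SE, adjusted p = 2.56e-16, edgeR). Its copy fos.S had 359, 350.3 and 251 CPM at 90 mpa, against 5.53, 0.252 and 2.37 CPM at 0 mpa, a log2 fold change of 6.87 ± 0.98 (7.85 without 0 mpa A). The 0 mpa values of fos.S spread widely, and its adjusted p was larger (0.000117). The cause was not tested, since the fit estimates the spread over all 27 libraries. fosb.S, which encodes FosB, had 835, 595 and 604 CPM at 90 mpa, against 1.202, 0.252 and 1.51 CPM at 0 mpa (log2 fold change 9.35 ± 0.65, adjusted p = 9.83e-16). For fosb.L the 90 mpa libraries had 367, 394 and 631 CPM, against 1.68, 0 and 0 CPM at 0 mpa, and for fosl1.L, which encodes Fra-1, 357, 329.8 and 151 CPM, against 1.202, 0 and 0 CPM. In both genes all 0 mpa reads came from library A, so their fitted changes, 9.64 ± 1.02 and 9.40 ± 0.74, rest on that library. They were 9.02 and 8.79 without 0 mpa C, and without 0 mpa A, where no read is left at 0 mpa and the fit depends on the prior count, 14.05 and 13.35. fosl1.S had reads in B and C at 0 mpa, 0, 1.51 and 0.432 CPM, below 156, 269 and 163 CPM at 90 mpa (log2 fold change 8.23 ± 0.59 (9.61 without 0 mpa B), adjusted p = 2.56e-16).

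The Jun partners of these proteins rose too. jun.L had 479, 561 and 1435 CPM at 90 mpa, against 27.4, 15.9 and 34.3 CPM at 0 mpa, a log2 fold change of 4.98 ± 0.47 (4.28 without 90 mpa C). junb.L had 183, 395 and 356 CPM at 90 mpa, against 5.53, 11.6 and 3.02 CPM at 0 mpa, a log2 fold change of 5.54 ± 0.46 (6.18 without 0 mpa B). The groups did not overlap in either gene, and edgeR's adjusted p was 4.52e-12 for jun.L and 2.88e-14 for junb.L. The related factors atf3.L, a stress-induced repressor, and crem.S, a cAMP-responsive factor, also rose. atf3.L had 194, 213 and 45.3 CPM at 90 mpa, against 7.21, 6.81 and 4.101 CPM at 0 mpa (log2 fold change 4.71 ± 0.46, adjusted p = 1.24e-11). crem.S had 3 reads at 0 mpa and 309 at 90 mpa, a ratio of 132 after scaling (95% exact counting interval 44.6 to 642, adjusted p = 9.7e-08).

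Zinc finger factors of the Egr and Klf families and nuclear receptors of the Nr4a family rose with AP-1. egr1.L, a target of serum response factor, had 649.8, 833 and 776 CPM at 90 mpa, against 43.3, 15.9 and 32.4 CPM at 0 mpa (log2 fold change 4.62 ± 0.45, adjusted p = 1.08e-11). egr4.L had 12.5, 17.8 and 0 CPM at 90 mpa and no read in any 0 mpa library, so it was at least 63.0-fold higher against a floor of 3 counts over the group (adjusted p = 1.58e-06). Its 0 in 90 mpa C, where 1 read is worth 3.02 CPM, overlaps the 0 mpa values. klf2.L and klf2.S encode a factor that restrains inflammation in endothelial cells and leukocytes of mammals. klf2.S had 553, 537 and 737 CPM at 90 mpa, against 12.02, 3.03 and 9.28 CPM at 0 mpa (log2 fold change 6.22 ± 0.45, adjusted p = 5.29e-16), and klf2.L changed by 5.82 ± 0.44 (adjusted p = 1.23e-15). nr4a2.L, an orphan nuclear receptor, had 148, 169.5 and 148 CPM at 90 mpa, against 2.64, 1.51 and 0.216 CPM at 0 mpa (log2 fold change 6.74 ± 0.56 (7.51 without 0 mpa A), adjusted p = 4.29e-14). cebpd.S, which encodes a C/EBP factor of the acute phase response, had 773, 1111 and 1583 CPM at 90 mpa, against 70.2, 43.9 and 71.2 CPM at 0 mpa (log2 fold change 4.22 ± 0.44, adjusted p = 6.06e-11). myc.L, which drives growth and division, had 182, 183 and 121 CPM at 90 mpa, against 42.3, 56.0 and 38.0 CPM at 0 mpa (log2 fold change 1.86 ± 0.37, adjusted p = 0.000568). In each of these genes except egr4.L all 3 libraries of 90 mpa lay above all 3 of 0 mpa.

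**Figure D2:**
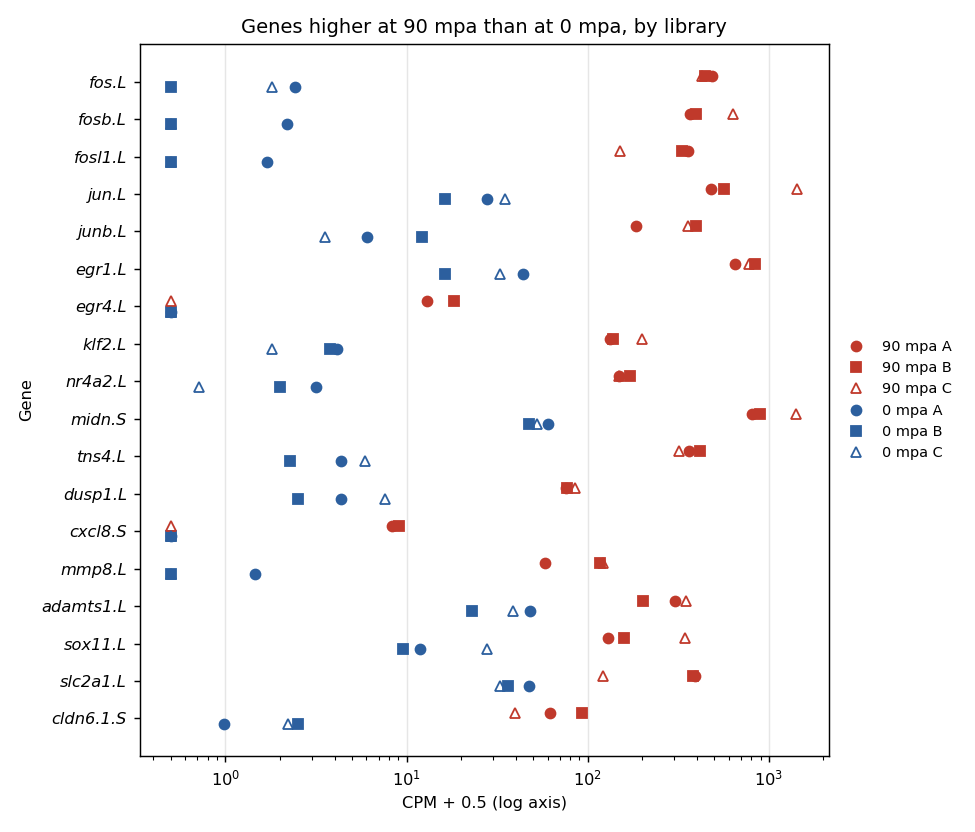
Levels (CPM + 0.5, log axis) of 18 higher genes in each library, with 90 mpa in red above 0 mpa in blue and open triangles for library C. The 90 mpa values of fos.L lie between 426 and 483 CPM and its 0 mpa values at or below 1.92 CPM, while egr4.L and cxcl8.S have no read in 90 mpa C.

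Genes of mRNA decay and growth arrest rose beside the factors. Of 33 tested genes of mRNA decay, growth arrest and other immediate early products, 13 rose with 90 mpa C and 13 without it. For all genes the share was 2.62%. The median log2 fold change of the list was 1.05. zfp36.S encodes tristetraprolin, which binds AU-rich messages and speeds their decay. It had 1572, 1811 and 2792 CPM at 90 mpa, against 55.0, 53.7 and 77.3 CPM at 0 mpa (log2 fold change 5.05 ± 0.45, adjusted p = 3.19e-13). sik1.S, a salt-inducible kinase, had 645, 669 and 547 CPM at 90 mpa, against 12.7, 7.31 and 9.07 CPM at 0 mpa (log2 fold change 6.00 ± 0.49, adjusted p = 1.93e-14). The antiproliferative gene btg2.S changed by 4.17 ± 0.39 (adjusted p = 1.6e-12), with 146, 251 and 278 CPM at 90 mpa, against 13.5, 12.1 and 11.4 CPM at 0 mpa. Its relative btg5.2.L, named after its values were seen, had 375, 351 and 148 CPM at 90 mpa, against 6.73, 5.55 and 5.61 CPM at 0 mpa (log2 fold change 5.63 ± 0.45, adjusted p = 9.6e-15). midn.S, also named after its values were seen, encodes midnolin, which in mammals delivers immediate early proteins such as Fos and Egr1 to the proteasome. It had 807, 889 and 1402 CPM at 90 mpa, against 60.1, 46.6 and 52.0 CPM at 0 mpa (log2 fold change 4.28 ± 0.42, adjusted p = 1e-11), and the copy midn.L changed by 3.87 ± 0.39 (adjusted p = 4.24e-11). The 90 mpa and 0 mpa values did not overlap in any of these genes.

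Feedback inhibitors of the ERK kinase cascade, which growth factor receptors drive, rose as well. Of 29 tested members 11 rose (also 11 without 90 mpa C), beside 2.62% of all genes, with a median log2 fold change of 1.61. The fit of the 6 libraries alone called 7. dusp5.L, a nuclear phosphatase of ERK, had 1009, 1351 and 795 CPM at 90 mpa, against 14.9, 4.79 and 9.71 CPM at 0 mpa (log2 fold change 6.74 ± 0.50, adjusted p = 8.09e-16). Its copy dusp5.S changed by 2.60 ± 0.42 (adjusted p = 1.36e-05), with 44.5, 75.4 and 33.2 CPM at 90 mpa, against 8.41, 10.6 and 7.34 CPM at 0 mpa; the difference between the copies was not tested. dusp1.L, which acts on p38 and JNK too, had 74.9, 76.3 and 84.6 CPM at 90 mpa, against 3.85, 2.02 and 7.12 CPM at 0 mpa (log2 fold change 4.15 ± 0.50, adjusted p = 9.4e-09). dusp6.L, a cytoplasmic ERK phosphatase, changed by 2.34 ± 0.38 (adjusted p = 1.74e-05).

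Ligands that feed this cascade through the EGF receptor rose in 4 of 16 tested members of the family (4 without 90 mpa C), beside 2.62% of all genes. They were both copies of areg, which encodes amphiregulin, and of ereg, which encodes epiregulin. ereg.S had 60.7, 84.5 and 39.3 CPM at 90 mpa, against 5.29, 0.252 and 4.75 CPM at 0 mpa (log2 fold change 4.20 ± 0.58, adjusted p = 1.91e-06). ereg.L changed by 2.96 ± 0.51 (adjusted p = 7.19e-05) and areg.L by 4.21 ± 0.69 (4.81 without 0 mpa A) (adjusted p = 1.64e-05). areg.S was less certain: it had 19.3, 6.39 and 0 CPM at 90 mpa, against 1.44, 0.252 and 0 CPM at 0 mpa, its 0 in 90 mpa C overlapped the 0 mpa values, and its adjusted p of 0.0191 was 0.0978 without 0 mpa C, 0.123 without 0 mpa B and 0.108 without 90 mpa A. tns4.L, which encodes a focal adhesion protein that EGF receptor signalling induces in human cells, was named after its values were seen. It had 359, 417 and 320.2 CPM at 90 mpa, against 3.85, 1.76 and 5.40 CPM at 0 mpa (log2 fold change 6.62 ± 0.49, adjusted p = 8.09e-16).

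Signals of inflammation rose in some members of their list. Of 30 tested cytokines, chemokines and prostaglandin enzymes 5 rose, beside 2.62% of all genes, 5 also without 90 mpa C and 7 by DESeq2, and the median log2 fold change was 0.48. Only 2 were called with the 6 libraries alone. ptgs2.L encodes cyclooxygenase-2, the inducible enzyme of prostaglandin synthesis. It had 573, 434 and 187 CPM at 90 mpa, against 22.1, 17.9 and 25.7 CPM at 0 mpa (log2 fold change 4.20 ± 0.45, adjusted p = 1.91e-10), and ptgs2.S changed by 2.80 ± 0.37 (adjusted p = 1.31e-07). cxcl8.S encodes interleukin 8, a chemokine that draws neutrophils. It had 7.78, 8.53 and 0 CPM at 90 mpa and no read at 0 mpa, so it was at least 33.6-fold higher (adjusted p = 0.000969). lep.L encodes leptin, a cytokine-like hormone, and had 36.9, 43.2 and 0 CPM at 90 mpa, against 0.721, 0 and 0 CPM at 0 mpa. Its ratio of scaled reads was 166 (95% exact counting interval 56.3 to 807, adjusted p = 2.98e-06), and its 0 mpa reads all came from library A. lif.S, a ligand of the interleukin 6 family, had 3.78, 4.07 and 0 CPM at 90 mpa and no read at 0 mpa. It was at least 16.2-fold higher, but its adjusted p of 0.0348 was 0.118 without 0 mpa C, 0.138 without 0 mpa B, 0.127 without 0 mpa A and 0.0651 without 90 mpa B. In cxcl8.S, lep.L and lif.S the 0 of 90 mpa C overlapped 0 mpa. For lep.L at least 10 reads were due in 90 mpa C at the A and B level, and the cause of its 0 was not tested.

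Of 32 tested genes of NF-kB and JAK-STAT feedback 6 rose (8 without 90 mpa C), beside 2.62% of all genes (median log2 fold change 1.23). Most of the members called restrain cytokine receptors. socs3.L, whose product blocks receptors of the interleukin 6 family, had 58.5, 77.3 and 30.2 CPM at 90 mpa, against 0.481, 0.504 and 4.32 CPM at 0 mpa (log2 fold change 4.98 ± 0.54 (6.81 without 0 mpa C), adjusted p = 3e-10). socs3.S changed by 4.29 ± 0.48 (4.98 without 0 mpa B) (adjusted p = 1e-09). cish.L, a related inhibitor of STAT5 signalling, had 279, 392.4 and 118 CPM at 90 mpa, against 29.6, 28.0 and 33.7 CPM at 0 mpa (log2 fold change 3.14 ± 0.37, adjusted p = 5.76e-09). il6st.S, the receptor subunit that leukaemia inhibitory factor and interleukin 6 share, changed by 2.13 ± 0.46 (1.53 without 90 mpa C) (adjusted p = 0.00209, and 0.133 with the 6 libraries alone). socs1.S had 13.3, 2.91 and 51.4 CPM at 90 mpa, against 0, 0 and 4.53 CPM at 0 mpa, and its adjusted p of 0.0414 was 0.312 with the 6 libraries alone, 0.191 without 0 mpa B, 0.181 without 0 mpa A and 0.296 without 90 mpa C. A pair of receptor genes of the tumour necrosis factor family outside the list was named after its values were seen. tnfrsf12a.S, the receptor of the cytokine TWEAK, had 93.2, 183 and 259.8 CPM at 90 mpa, against 9.61, 1.76 and 1.73 CPM at 0 mpa (log2 fold change 5.31 ± 0.56 (6.62 without 0 mpa A), adjusted p = 2.91e-09). tnfrsf6b.S, which in humans encodes a soluble decoy for Fas ligand, had 5.11, 13.6 and 0 CPM at 90 mpa and no read at 0 mpa (at least 39.6-fold, adjusted p = 4.95e-05).

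Matrix proteases and their inhibitors, which open the tissue around a wound, rose in 12 of 41 tested members, beside 2.62% of all genes. The number was 10 without 90 mpa C and 6 with the 6 libraries alone. The median log2 fold change was 1.18. mmp8.S, a collagenase, had the highest CPM of the list at 90 mpa, not scaled by gene length, with 1145, 1206 and 2909 CPM at 90 mpa, against 34.6, 9.83 and 20.9 CPM at 0 mpa (log2 fold change 6.32 ± 0.57 (5.71 without 90 mpa C), adjusted p = 1.24e-11). mmp8.L had 57.8, 116 and 121 CPM at 90 mpa, against 0.961, 0 and 0 CPM at 0 mpa, where library A held all the reads (adjusted p = 1.27e-07). mmp1.S, another collagenase, had 194, 235 and 60.4 CPM at 90 mpa, against 9.37, 1.01 and 2.59 CPM at 0 mpa (log2 fold change 5.28 ± 0.55 (6.50 without 0 mpa A), adjusted p = 9.13e-10). The gelatinase gene mmp9.2.L had 29.8, 50.8 and 9.06 CPM at 90 mpa, against 4.33, 0 and 3.67 CPM at 0 mpa (log2 fold change 3.64 ± 0.65, adjusted p = 0.000518, and 0.0503 with the 6 libraries alone). adamts1.L, a protease of proteoglycans, had 303, 201 and 347 CPM at 90 mpa, against 47.3, 22.4 and 38.2 CPM at 0 mpa (log2 fold change 2.96 ± 0.39, adjusted p = 9.53e-08). mmp13l.S had 14 reads at 90 mpa and none at 0 mpa, and its adjusted p of 0.0350 was 0.112 without 0 mpa C, 0.131 without 0 mpa B, 0.124 without 0 mpa A and 0.0848 without 90 mpa C.

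Structural matrix and cytoskeletal genes changed in fewer members. Of 37 tested matrix and adhesion genes 4 rose (3 without 90 mpa C and 2 without 0 mpa B), beside 2.62% of all genes. Both copies of thbs1, which encodes the matrix protein thrombospondin 1, were among them: thbs1.S had 409, 492 and 825 CPM at 90 mpa, against 98.5, 124 and 136 CPM at 0 mpa (log2 fold change 2.26 ± 0.37, adjusted p = 2.08e-05). Of 41 tested Yap targets, SRF targets and actin genes 4 rose (4 without 90 mpa C), again beside 2.62% of all genes. zyx.S, which encodes the focal adhesion protein zyxin, had 337, 369 and 556 CPM at 90 mpa, against 36.3, 44.4 and 59.6 CPM at 0 mpa (log2 fold change 3.16 ± 0.38, adjusted p = 9.41e-09). ccn2.L, the Yap target that encodes connective tissue growth factor, changed by 1.63 ± 0.34 (adjusted p = 0.00098). The median log2 fold changes of these lists were 0.25 and 0.38, beside -0.09 for all genes. The matrix list summed to 5897 to 6338 CPM at 90 mpa, against 3958 to 4453 CPM at 0 mpa. The Yap, SRF and actin list summed to 23740 to 35704 CPM, against 19861 to 21971 CPM. Genes of many reads contribute most to such sums.

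In TGF-beta and BMP signalling the members called were regulators and targets, not ligands. Of 40 tested members 7 rose (6 without 90 mpa C) and 1 was lower (none without 90 mpa C), beside 2.62% and 0.754% of all genes. pmepa1.S, which encodes a membrane inhibitor of Smad signalling, had 107, 85.3 and 259.8 CPM at 90 mpa, against 6.49, 3.28 and 6.91 CPM at 0 mpa (log2 fold change 4.67 ± 0.50 (4.05 without 90 mpa C), adjusted p = 4.12e-10). tgif1.S, a corepressor of Smad proteins, had 72.3, 117 and 39.3 CPM at 90 mpa, against 1.44, 2.77 and 11.4 CPM at 0 mpa (log2 fold change 3.91 ± 0.48 (5.23 without 0 mpa C), adjusted p = 1.19e-08), and tgif1.L changed by 3.13 ± 0.42 (adjusted p = 1.58e-07). ski.S, another Smad corepressor, changed by 2.43 ± 0.42 (adjusted p = 4.83e-05). fst.L encodes follistatin, which binds activin. It had 21.1, 29.1 and 15.1 CPM at 90 mpa, against 0.961, 5.04 and 7.12 CPM at 0 mpa (log2 fold change 2.37 ± 0.65), and its adjusted p of 0.0270 was 0.250 with the 6 libraries alone, 0.0900 without 0 mpa B, 0.178 without 0 mpa A and 0.0982 without 90 mpa B. The lower member was nog.L, which encodes the BMP antagonist noggin, with no read at 90 mpa and 1.44, 6.30 and 3.67 CPM at 0 mpa (at least 12.5-fold lower, adjusted p = 0.0446). Its call was lost in 7 of 12 alternatives, without each of the 6 libraries in turn among them, with an adjusted p of up to 0.144.

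The Wnt, FGF, Notch, Hedgehog and retinoic acid pathways gave 2 higher and 3 lower calls among 98 tested members, beside 2.62% and 0.754% of all genes, and 1 and 2 without 90 mpa C. The counts were 1 to 3 higher and 1 to 2 lower when 1 library was left out. wnt9b.2.L, a Wnt ligand, had 9.78, 5.62 and 9.06 CPM at 90 mpa and no read at 0 mpa, a rise of at least 32.4-fold (adjusted p = 0.00014), and all its 90 mpa libraries lay above 0 mpa. Lower were lfng.S, whose product modifies Notch receptors, hes5.1.L, a Notch target, and cyp26a1.S, the enzyme that breaks down retinoic acid. lfng.S had 2.00, 1.36 and 0 CPM at 90 mpa, against 9.61, 14.1 and 13.6 CPM at 0 mpa (log2 fold change -2.99 ± 0.74), and its adjusted p of 0.009999 was 0.168 with the 6 libraries alone and 0.0638 without 90 mpa B. hes5.1.L had 1.11, 0.581 and 0 CPM at 90 mpa, against 19.5, 7.82 and 9.28 CPM at 0 mpa, and cyp26a1.S had 40.7, 27.1 and 6.04 CPM at 90 mpa, against 126, 41.8 and 102 CPM at 0 mpa. The call of hes5.1.L (adjusted p = 0.0428) was lost in 9 of 13 alternatives and that of cyp26a1.S (adjusted p = 0.0210) in 6 of 13, both also without 90 mpa C (0.0878 and 0.0742).

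Developmental transcription factors moved both ways. Of 78 tested members 12 rose and 4 fell (13 and 3 without 90 mpa C), beside 2.62% and 0.754% of all genes. The median log2 fold change was 0.08. Only 5 rose without 0 mpa A and 5 without 0 mpa B, and 0, 1 and 2 were lower without 0 mpa A, 90 mpa B and 0 mpa C. sox11.L, which encodes a factor of neural and mesenchymal progenitors, had 129, 157 and 344 CPM at 90 mpa, against 11.3, 9.08 and 27.2 CPM at 0 mpa (log2 fold change 3.67 ± 0.44 (4.32 without 0 mpa C), adjusted p = 6.76e-09). sox11.S changed by 3.10 ± 0.46 (adjusted p = 1.57e-06). sall4.L, a zinc finger factor of embryonic and limb progenitors, had 33.8, 40.7 and 36.3 CPM at 90 mpa, against 6.97, 2.77 and 5.18 CPM at 0 mpa (log2 fold change 2.89 ± 0.46, adjusted p = 8.83e-06). Both copies of snai2, which encodes the neural crest and mesenchyme factor Slug, were lower: snai2.S had 7.78, 6.98 and 0 CPM at 90 mpa, against 26.4, 14.1 and 31.7 CPM at 0 mpa (log2 fold change -1.88 ± 0.50), with an adjusted p of 0.0191 that was 0.326 with the 6 libraries alone, 0.0972 without 0 mpa C, 0.0687 without 0 mpa A and 0.0592 without 90 mpa B. snai2.L changed by -1.85 ± 0.45 (adjusted p = 0.00816, and 0.215 with the 6 libraries alone, 0.0835 without 0 mpa A and 0.0928 without 90 mpa B). foxb1.L, a forkhead factor of the neural tube, had 7.12, 3.29 and 3.02 CPM at 90 mpa, against 25.5, 19.7 and 23.5 CPM at 0 mpa (log2 fold change -2.21 ± 0.57 (-2.81 without 90 mpa A)), with an adjusted p of 0.0164 that was 0.215 with the 6 libraries alone, 0.0597 without 0 mpa A and 0.106 without 90 mpa B.

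Glucose transporters and a regulator of glycolysis rose. Of 54 tested genes of glucose uptake, glycolysis and hypoxia 4 rose (3 without 90 mpa C), beside 2.62% of all genes. None was lower, but 2 were without 90 mpa B and 1 without 90 mpa A. At an unadjusted p under 0.05 (edgeR) 6 members were higher and 6 lower, beside 3827 of all 22268 genes in both directions together. The median log2 fold change of the list was -0.21. The list summed to 16073, 19235 and 14526 CPM in 90 mpa A, B and C, against 17853, 21656 and 18280 CPM in 0 mpa A, B and C. slc2a1.L, which encodes the glucose transporter Glut1, had 391, 380.3 and 121 CPM at 90 mpa, against 46.6, 35.8 and 32.2 CPM at 0 mpa (log2 fold change 2.99 ± 0.38, adjusted p = 2.83e-08), and slc2a1.S changed by 2.28 ± 0.35 (adjusted p = 4.7e-06). pfkfb3.S, which makes the activator of phosphofructokinase, had 57.1, 73.8 and 6.04 CPM at 90 mpa, against 3.85, 3.53 and 3.89 CPM at 0 mpa (log2 fold change 3.74 ± 0.59, adjusted p = 2.08e-05). Its 90 mpa values lay above the 0 mpa values in every library, with the smallest gap in 90 mpa C. Genes of sterol handling outside the lists, named after their values were seen, included ch25h.S, which encodes cholesterol 25-hydroxylase. It had 27.8, 36.4 and 118 CPM at 90 mpa, against 0.240, 1.51 and 0 CPM at 0 mpa (log2 fold change 6.54 ± 0.69 (5.74 without 90 mpa C, 8.58 without 0 mpa B and 5.93 without 0 mpa C), adjusted p = 1.33e-10). ldlr.S, the receptor for low density lipoprotein, had 66.9, 68.0 and 45.3 CPM at 90 mpa, against 7.93, 9.58 and 21.6 CPM at 0 mpa (log2 fold change 2.24 ± 0.43, adjusted p = 0.000285).

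Survival, stress and clock genes gave short lists of calls, to be read beside the 2.62% of all genes called higher. Of 40 tested apoptosis and p53 genes 4 rose, 4 without 90 mpa C, 2 without 0 mpa B and 1 without 0 mpa C. mcl1.L, which encodes an inhibitor of apoptosis of the Bcl-2 family, had 73.6, 103 and 96.7 CPM at 90 mpa, against 6.01, 15.4 and 13.6 CPM at 0 mpa (log2 fold change 2.96 ± 0.40, adjusted p = 1.92e-07). Of 54 tested genes of heat shock, unfolded protein and oxidative stress 3 rose, 4 without 90 mpa C, 1 without 0 mpa A and 0 without 0 mpa B. sqstm1.L, an autophagy receptor, had 175, 256 and 205 CPM at 90 mpa, against 56.0, 61.5 and 99.5 CPM at 0 mpa (log2 fold change 1.55 ± 0.37), with an adjusted p of 0.00755 that was 0.0751 without 0 mpa B and 0.0889 without 0 mpa A. Of 22 tested clock genes 4 rose in every setting that left out 1 library. bhlhe40.L, a repressor of clock genes that many stimuli induce, had 353, 524 and 547 CPM at 90 mpa, against 11.8, 11.3 and 16.0 CPM at 0 mpa (log2 fold change 5.18 ± 0.39, adjusted p = 1.31e-15). arntl.L, which encodes the clock activator Bmal1, had 76.05, 65.1 and 51.4 CPM at 90 mpa, against 17.3, 11.3 and 13.8 CPM at 0 mpa (log2 fold change 2.21 ± 0.38, adjusted p = 3.82e-05), and per1.L, a clock repressor, changed by 2.16 ± 0.41 (adjusted p = 0.000233).

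**Figure D3:**
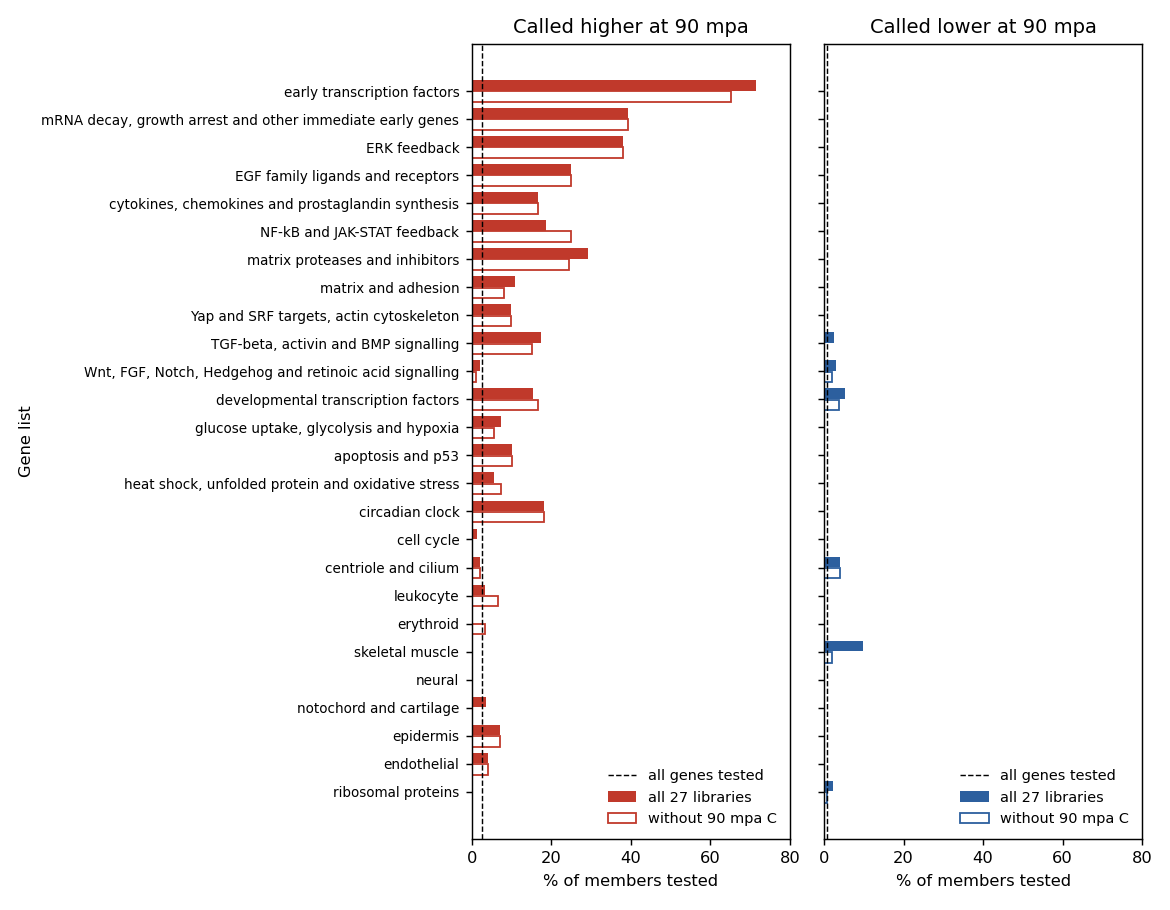
Share of the tested members of each gene list called higher (left, red) or lower (right, blue) at 90 mpa, with all 27 libraries in the fit (filled) and without 90 mpa C (open), both in percent of the members tested with all libraries. Early transcription factors stand at 45 of 63 members, and the dashed lines mark the 2.62% and 0.754% of all genes tested.

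The cell cycle list held few calls, beside 2.62% of all genes called higher and 0.754% lower. Of 73 tested members 1 was called higher, cdc25b.S, and none lower, while 4 were lower without 90 mpa A. By DESeq2 1 was lower. At an unadjusted p under 0.05 (edgeR) 6 were lower, beside 3827 of all 22268 genes in both directions together. The genes gmnn.L and fbxo5.L, which act in the cell cycle and were called lower (below), are not members of this list. The median log2 fold change was -0.21. cdc25b.S, a phosphatase that starts mitosis, had 116, 139 and 221 CPM at 90 mpa, against 57.9, 43.9 and 60.0 CPM at 0 mpa, and its adjusted p of 0.0148 was 0.0540 with the 6 libraries alone, 0.115 without 0 mpa B, 0.0607 without 0 mpa A and 0.0787 without 90 mpa C. pcna.S, the sliding clamp of DNA replication, had 52.5, 43.0 and 12.1 CPM at 90 mpa, against 86.3, 90.8 and 99.3 CPM at 0 mpa (adjusted p = 0.0818).

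The 12 largest decreases that met the naming rule were in genes with few reads at 90 mpa. All libraries of 90 mpa, A and B included, held fewer genes than those of 0 mpa at the larger common depth or by count. The part of this in these decreases was not tested. gmnn.L, which encodes geminin, the inhibitor of DNA replication licensing, had 0.667, 0.194 and 0 CPM at 90 mpa, against 19.0, 13.1 and 21.4 CPM at 0 mpa (log2 fold change -5.39 ± 0.94 (-6.43 without 90 mpa A), adjusted p = 6.24e-05), and it was called in each alternative. poc5.L, a centriole protein, had no read at 90 mpa and 10.09, 6.81 and 8.63 CPM at 0 mpa, at least 28.4-fold lower (adjusted p = 0.00123), and was also called in each alternative. mab21l2.L, a gene of eye and body wall development, had 1 read at 90 mpa and 91 at 0 mpa, a ratio of 0 mpa to 90 mpa of 71.2 (95% exact counting interval 12.5 to 2844, adjusted p = 0.00168, and 0.0631 with the 6 libraries alone). The other 9, which are dcaf10.S, kcne4.S, znrf2.S, zbtb48.S, ccdc102a.L, des.2.L, hibch.L, wdr46.S and tmem168.L, had between 0 and 2 reads over the 3 libraries of 90 mpa and 72 to 105 reads over those of 0 mpa. Of these 9, only des.2.L was called without each of the 6 libraries in turn, and it had an adjusted p of 0.105 with the 6 libraries alone.

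Other lower genes were named after their values were seen. hoxd3.S, a patterning factor, had 2.89, 4.46 and 3.02 CPM at 90 mpa, against 29.6, 27.7 and 17.5 CPM at 0 mpa (log2 fold change -2.77 ± 0.56, adjusted p = 0.000669, and 0.0808 with the 6 libraries alone). irx2.L, an Iroquois patterning factor, had 9.12, 20.5 and 3.02 CPM at 90 mpa, against 58.9, 38.1 and 44.0 CPM at 0 mpa (log2 fold change -1.84 ± 0.43 (-2.58 without 90 mpa B), adjusted p = 0.00520, and 0.162 with the 6 libraries alone). In both genes each 90 mpa library lay below each 0 mpa library. fbxo5.L encodes Emi1, an inhibitor of the anaphase-promoting complex, and had 3 reads at 90 mpa and 78 at 0 mpa, with an adjusted p of 0.0226 that was 0.171 with the 6 libraries alone, 0.108 without 0 mpa B and 0.108 without 90 mpa B. ckb.L, which encodes brain creatine kinase, had 486, 506 and 269 CPM at 90 mpa, against 1254, 1877 and 769 CPM at 0 mpa (log2 fold change -1.62 ± 0.37, adjusted p = 0.00427, and 0.102 without 0 mpa B). gatm.S, the enzyme of the first step of creatine synthesis, had 65.2, 81.6 and 51.4 CPM at 90 mpa, against 179.995, 255 and 141 CPM at 0 mpa, with an adjusted p of 0.0174 that was 0.0525 by DESeq2 and 0.144 without 0 mpa B.

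**Figure D4:**
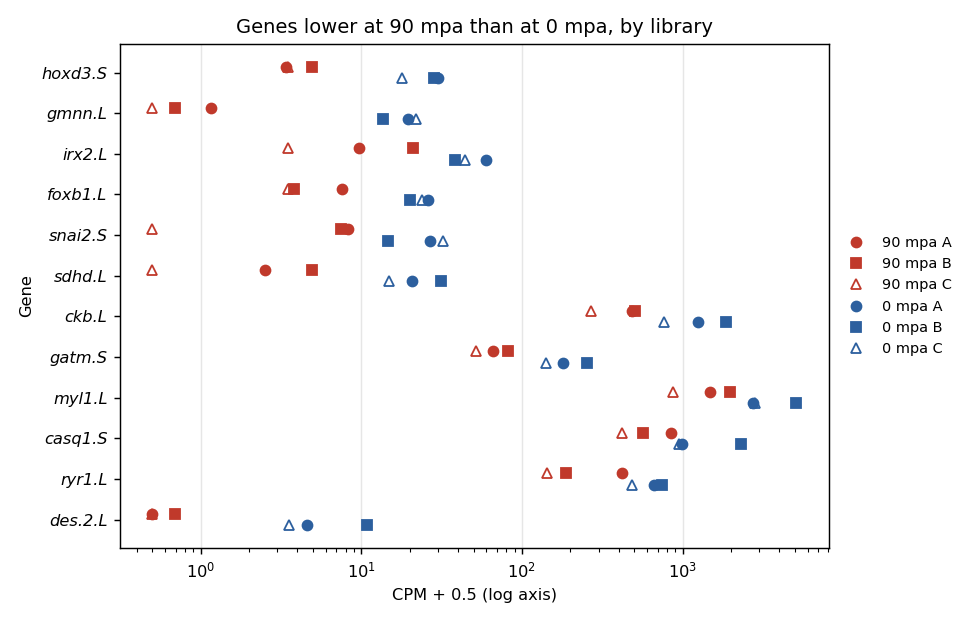
Levels (CPM + 0.5, log axis) of 12 lower genes in each library, with 90 mpa in red above 0 mpa in blue and open triangles for library C. The groups do not overlap in any of the 12 genes, which the naming rule required of 90 mpa A and B for the genes it chose. Library 90 mpa C is at 0 reads for gmnn.L, snai2.S, sdhd.L and des.2.L. The call of casq1.S (adjusted p = 0.0456, edgeR) was lost in 6 of 13 alternatives, with 0.170 without 90 mpa C and 0.444 without 0 mpa B. That of ryr1.L was lost in 7 of 13 alternatives, 5 of them with 1 library left out, and that of sdhd.L in 1 of 13.

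Markers of the tissues in a tail described what else differed between the groups; in bulk samples fewer cells of a type and less RNA per cell cannot be told apart. The tail tissues of the label were present in every library: notochord and cartilage markers summed to 10867 to 14122 CPM at 90 mpa and 11579.7 to 14086 CPM at 0 mpa, and neural markers to 427 to 486 CPM at 90 mpa and 444 to 681 CPM at 0 mpa. Of 51 tested skeletal muscle markers 5 were lower, beside 0.754% of all genes. It was 1 marker without 90 mpa C, 1 without 0 mpa B and 2 without 90 mpa B or 0 mpa A. The count was 0 with the 6 libraries alone, 10 with RLE scaling, 10 by DESeq2 and 14 without 5 shallow or low-complexity libraries, and 22 were lower at an unadjusted p under 0.05. Over all genes 3827 of 22268 had such a p by edgeR, both directions together. The lower calls over all genes were 11 of 17328 with the 6 libraries alone and 236 of 22268 with RLE scaling. They were 375 of 22268 by DESeq2 and 664 of 23166 without those 5 libraries. The list summed to 55397, 57825 and 43999.7 CPM in 90 mpa A, B and C, against 78340.2, 127733 and 82218 CPM in 0 mpa A, B and C, and its median log2 fold change was -0.75. myl1.L, a myosin light chain, had 1479, 1984 and 873 CPM at 90 mpa, against 2745, 5120.2 and 2813 CPM at 0 mpa (log2 fold change -1.30 ± 0.37), and its adjusted p of 0.0345 was 0.0633 with the 6 libraries alone, 0.283 without 0 mpa B, 0.0504 without 0 mpa A, 0.180 without 90 mpa C and 0.0581 without 90 mpa A. The highest muscle level was that of 0 mpa B. The part of this difference in tissue markers in the lower calls was not tested.

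Of 72 tested epidermal markers 5 rose (5 without 90 mpa C and 8 without 90 mpa A), beside 2.62% of all genes. Their median log2 fold change was 0.30. cldn6.1.S, a tight junction claudin, had 61.4, 92.6 and 39.3 CPM at 90 mpa, against 0.481, 2.02 and 1.73 CPM at 0 mpa (log2 fold change 5.55 ± 0.60, adjusted p = 1.01e-09), and cldn7.L had 455, 674 and 266 CPM at 90 mpa, against 116, 149.7 and 147 CPM at 0 mpa (log2 fold change 1.77 ± 0.38, adjusted p = 0.00150). foxi1.S, a factor of ionocytes, had 32.9, 28.3 and 136 CPM at 90 mpa, against 7.45, 14.9 and 13.0 CPM at 0 mpa, and its adjusted p of 0.00873 was 0.0765 with the 6 libraries alone, 0.0815 without 0 mpa A and 0.156 without 90 mpa C. Of 31 tested leukocyte markers 1 rose, beside 2.62% of all genes. It was cxcr4.S, which encodes the receptor of the chemokine Cxcl12. It had 34.2, 41.9 and 9.06 CPM at 90 mpa, against 8.89, 7.82 and 10.14 CPM at 0 mpa, with an adjusted p of 0.00655 that was 0.348 with the 6 libraries alone, 0.0568 without 0 mpa B and 0.0635 without 90 mpa B; 2 leukocyte markers were called without 90 mpa C. The leukocyte list summed to 573, 611 and 450.1 CPM at 90 mpa, against 448, 422 and 351 CPM at 0 mpa.

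The other tissue lists gave few calls or none, beside 2.62% of all genes called higher and 0.754% lower. Counts at an unadjusted p under 0.05 (edgeR) stand beside 3827 of all 22268 genes, both directions together. The 41 neural markers gave no call (3 higher and 4 lower at an unadjusted p under 0.05, 1 higher and 0 lower by DESeq2). The 31 erythroid markers gave none (5 higher and 1 lower at an unadjusted p under 0.05, 0 by DESeq2) and 1 higher without 90 mpa C, tal1.L, with an adjusted p of 0.0403. Erythroid levels varied widely between libraries of the same time, with sums of 5003, 10235 and 5393 CPM at 90 mpa, against 8196, 2102 and 7059 CPM at 0 mpa. The 29 notochord and cartilage markers gave 1 higher call, sox9.S, with an adjusted p of 0.0434 that was 0.154 with the 6 libraries alone, 0.0730 without 0 mpa C, 0.174 without 0 mpa B, 0.164 without 0 mpa A and 0.359 without 90 mpa C, and the 24 endothelial markers 1, sox7.L, with an adjusted p of 0.0257 that was 0.437 with the 6 libraries alone, 0.0717 without 0 mpa C, 0.144 without 0 mpa B, 0.0859 without 0 mpa A and 0.234 without 90 mpa B. Of 49 centriole and cilium genes foxj1.S, the master regulator of motile cilia, rose (log2 fold change 1.51 ± 0.36, adjusted p = 0.00772, and 0.165 with the 6 libraries alone and 0.0960 without 0 mpa A), and ift20.L and poc5.L were called lower. The call of ift20.L (log2 fold change -2.09, and -3.13 without 90 mpa A) was lost in 4 of 13 alternatives. In 3 of these 1 library was left out, and the adjusted p of ift20.L was up to 0.292. Of 132 ribosomal protein genes 3 were lower, 1 without 90 mpa C, 0 without 0 mpa B and 12 without 90 mpa B. The count was 0 with the 6 libraries alone, 9 without the filter, 12 by DESeq2 and 27 without 5 shallow or low-complexity libraries, and 31 were lower at an unadjusted p under 0.05. Their median log2 fold change was -0.48. The lower calls over all genes were 277 of 29776 without the filter, 375 of 22268 by DESeq2 and 664 of 23166 without those 5 libraries. The ribosomal list summed to 39685, 66508 and 62800 CPM in 90 mpa A, B and C, against 61925, 72775 and 62221 CPM in 0 mpa A, B and C. The lowest sum was that of 90 mpa A, while those of B and C lay within the 0 mpa range.

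The copies of a gene were also set side by side. Of 5791 pairs with both copies tested, 83 had both higher and 224 had 1 higher, 5 had both lower and 82 had 1 lower. Of all genes tested 2.62% were called higher and 0.754% lower. In 0 pairs did 1 copy rise and the other fall. Few such pairs were due with so few genes called lower, so this 0 cannot show that copies changed alike. Since reads can be split between copies, the members of a pair are not independent.

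The 90 mpa libraries were also set against their neighbours in time, 60 mpa and 3 hours (3 hpa), to see which genes were still changing. Between 90 mpa and 60 mpa 13 genes were higher (0.0584%) and 1 lower (0.00449%) at 90 mpa. Without 90 mpa C 13 were higher, 9 of them the same genes, and 3 lower. These counts were sensitive: 2 to 5 genes were higher without 60 mpa A, B or C in turn, and 46 higher and 38 lower without 90 mpa A. mmp9.2.S, a gelatinase, had 10.2, 3.49 and 0 CPM in 90 mpa A, B and C, against 0, 0 and 0.205 CPM in 60 mpa A, B and C (64 reads against 1, a ratio of 82.0 after scaling with a 95% exact counting interval of 14.2 to 3288, adjusted p = 0.000158). mmp19.L, a metalloprotease of basement membranes, had 21.8, 35.7 and 3.02 CPM at 90 mpa, against 1.93, 5.58 and 1.84 CPM at 60 mpa (log2 fold change 2.91 ± 0.63, adjusted p = 0.0466). mmp1.S had 194, 235 and 60.4 CPM at 90 mpa, against 27.003, 31.9 and 34.6 CPM at 60 mpa (log2 fold change 2.44 ± 0.47, adjusted p = 0.0147). tnfrsf12a.S changed by 2.34 ± 0.47 (adjusted p = 0.0285), pmepa1.S by 2.17 ± 0.43 (adjusted p = 0.0167) and tgif1.S by 1.95 ± 0.43 (adjusted p = 0.0466). The named gene that was lower, snai2.L, had 14.9, 6.98 and 9.06 CPM at 90 mpa, against 52.6, 39.3 and 65.6 CPM at 60 mpa (log2 fold change -2.30 ± 0.45, adjusted p = 0.0147). The call of mmp9.2.S held without each library in turn. Without 60 mpa B the adjusted p of the other genes named here was 0.0509 to 0.218, except for pmepa1.S and snai2.L, which stayed under the threshold, and without 60 mpa C it was 0.0816 to 0.244. Without 60 mpa A the adjusted p of the other genes named in this comparison was between 0.116 (snai2.L) and 0.329 (tgif1.S), and without 90 mpa C it was 0.15 for tnfrsf12a.S and 0.15 for pmepa1.S. Without 90 mpa B it was 0.135 for mmp19.L, 0.165 for tgif1.S, 0.103 for snai2.L and 0.0575 for mmp1.S and tnfrsf12a.S.

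Of 63 early transcription factors none was called between 90 mpa and 60 mpa with all libraries (2 higher and 14 lower at an unadjusted p under 0.05, 0 and 4 by DESeq2). Over all genes 2012 of 22268 had an unadjusted p under 0.05 by edgeR in this comparison, both directions together. Without 90 mpa C 1 was lower, klf2.L (adjusted p = 0.0298, and 0.0711 with that library), 2 were lower without 90 mpa A, 3 without 5 shallow or low-complexity libraries and 5 without the filter. fos.L had 483, 442 and 426 CPM at 90 mpa, against 1375, 1276 and 1306 CPM at 60 mpa, every library lower at 90 mpa (log2 fold change -1.55 ± 0.41, adjusted p = 0.121). fosl1.L had 357, 329.8 and 151 CPM at 90 mpa, against 201, 310.4 and 251 CPM at 60 mpa (log2 fold change 0.16 ± 0.45, adjusted p = 0.970). egr1.L had 649.8, 833 and 776 CPM at 90 mpa, against 1997, 2582 and 2101 CPM at 60 mpa (log2 fold change -1.57 ± 0.40, adjusted p = 0.106). A p that misses the threshold does not show that the levels were alike.

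Between 3 hpa and 90 mpa 6 genes were higher (0.0269%) and 1 lower (0.00449%) at 3 hpa, 4 and 1 without 90 mpa C, and 57 higher and 31 lower without 90 mpa A. lamb3.S, which encodes a laminin chain of the epidermal basement membrane, had 52.7, 71.2 and 83.1 CPM in 3 hpa A, B and C, against 0, 0.775 and 0 CPM in 90 mpa A, B and C (log2 fold change 7.36 ± 0.77, adjusted p = 2.79e-08). runx1.L, a transcription factor of blood and epithelial stem cells, had 107, 73.4 and 104 CPM at 3 hpa, against 24.2, 25.6 and 3.02 CPM at 90 mpa (log2 fold change 2.16 ± 0.44, adjusted p = 0.0375). serpinh1.S, the collagen chaperone, had 71.5, 65.3 and 56.1 CPM at 3 hpa, against 262, 254 and 251 CPM at 90 mpa (log2 fold change -1.99 ± 0.34, adjusted p = 0.00207). The call of lamb3.S held without each library in turn. The adjusted p of runx1.L was 0.184 without 3 hpa A, 0.187 without 3 hpa C, 0.0628 without 90 mpa B and 0.11 without 90 mpa C, and that of serpinh1.S was 0.187 without 3 hpa C.

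**Figure D5:**
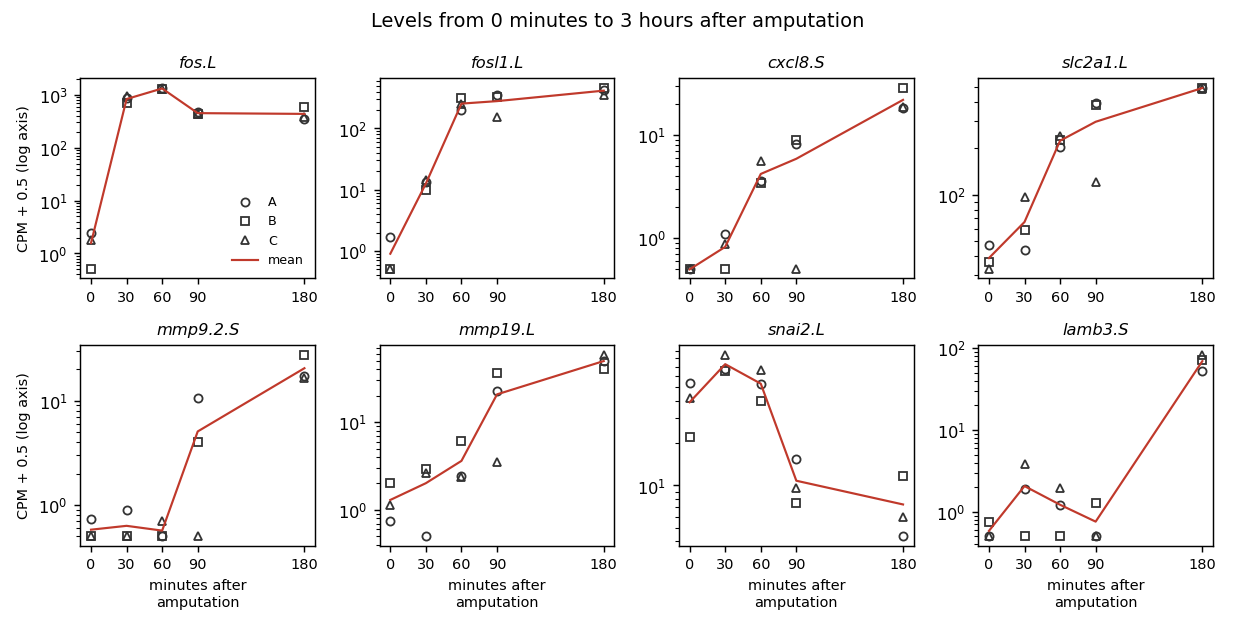
Levels (CPM + 0.5, log axis) of 8 genes from 0 to 180 minutes after amputation, with a symbol per library and a line through the means of 3 libraries. fos.L is highest at 60 minutes, mmp9.2.S is at or near 0 until 60 minutes, and at 90 minutes lamb3.S has reads in library B and none in A and C.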

How the data were processed

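Bulk RNA-sequencing libraries of amputated Xenopus laevis tails were prepared with a Lexogen SENSE total RNA kit and sequenced as paired reads of 76 bases, per the labels' protocols. The authors deposited whole-number counts per gene for 27 libraries (9 times, 3 each), and a table of normalized signal for 25 of them that lacks 90 mpa C and 7 dpa C. The deposited signal equalled the count divided by 1 factor per library, within 1e-06, and was used for this check alone. R 4.1.0, DESeq2 1.32.0, HTSeq 0.6.1p1 and STAR 2.7.9a are named, without roles, in the submitters' processing notes. Not given in the sources used here are genome build, annotation and strand setting. Of 29776 gene symbols 29771 matched RefSeq's table of assembly v10.1, used for names alone.

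The deposited counts were tested with edgeR 4.0.16 in R 4.3.3 (quasi-likelihood test, robust, TMM scaling, filterByExpr by group, 22268 genes kept and 7508 dropped). The fit covered all 27 libraries with the times as groups, since 3 libraries a time give little information on the spread, with contrasts of 90 mpa with 0 mpa, 90 mpa with 60 mpa and 3 hpa with 90 mpa. Benjamini-Hochberg adjustment ran over all genes of a contrast, and a gene was called at an adjusted p under 0.05. Log2 fold changes have a prior count of 0.125 and are given ± SE, and levels are CPM with TMM factors. The SE is the size of the log2 fold change divided by the square root of the test's F statistic. It therefore restates the test and is no separate measure of precision. Against a group without reads a fold is a lower bound from a floor of 3 counts over the group, and with 1 to 3 reads the ratio of scaled reads is given with its 95% exact counting interval. Such bounds and intervals cover counting error only. The tests were checked on simulated counts drawn with the spread of the fit, with changes set in genes of at least 5 CPM. These counts were not made to hold the low gene number of 90 mpa C, so the check does not cover it.

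The 27 gene lists, of which 26 had tested members (the mitochondrially encoded list matched 0 genes), and the genes named were chosen with earlier results of these data known. The naming rule took genes called with and without 90 mpa C, at 5 CPM or more in the higher group and with 90 mpa A and B on 1 side of 0 mpa, by the 12 largest changes each way and up to 3 per list, except a few genes that are not reported here. Other genes were named after their values were seen, among them list members that fail this rule and genes called between neighbouring times. Alternatives were each of the libraries left out, the 6 libraries alone, 2 or 5 shallow or low-complexity libraries left out, RLE scaling, no filter, DESeq2 1.42.0 and a replicate block.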

Additional observations from a re-analysis of the deposited data

Results flagged for a closer look

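Named genes whose level at 90 mpa differed from that at a neighbouring time by the test of that difference (edgeR's quasi-likelihood test, Benjamini-Hochberg adjustment over all genes) are listed here with n = 3 libraries a time. At 90 mpa against 60 mpa, mmp9.2.S had a ratio of scaled reads of 82.0 and was above every 60 mpa library in 90 mpa A and B but not in C. The log2 fold change, 90 mpa over 60 mpa, was 2.91 for mmp19.L, 2.44 for mmp1.S, 1.95 for tgif1.S, 1.74 for lmcd1.S, 2.26 for sik2.L and -2.30 for snai2.L. It was 2.51 for arl4c.S, 2.34 for tnfrsf12a.S, 2.17 for pmepa1.S and 1.72 for ralgds.L, which had their highest 90 mpa level in library C, and their adjusted p without 90 mpa C was 0.196, 0.15, 0.15 and 0.373 in that order. Without 60 mpa A the adjusted p of the genes in this paragraph other than mmp9.2.S was 0.116 to 0.329, and that of sik2.L and lmcd1.S was 0.194 without 60 mpa C.

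At 3 hpa against 90 mpa, adam28.1.L was at least 39.2-fold higher, with no read at 90 mpa. des.2.L had a ratio of scaled reads of 73.7 (95% exact counting interval 12.9 to 2938), with 1 read at 90 mpa. The log2 fold change, 3 hpa over 90 mpa, was 7.36 for lamb3.S, 2.16 for runx1.L and -1.99 for serpinh1.S. The adjusted p of des.2.L was 0.169 without 3 hpa A, 0.0641 without 90 mpa A and 0.0762 without 90 mpa B, and that of adam28.1.L was 0.0762 without 90 mpa B.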

How the results depend on the processing

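No named gene changed sign in a comparison that called it, under an alternative that could be fitted. lamb3.S, not called at 90 mpa against 0 mpa, had a log2 fold change of -1.95 without 90 mpa B, beside 1.99 with it. Leaving out 1 library gave 322 to 755 higher and 62 to 457 lower genes at 90 mpa against 0 mpa, and 328 to 432 higher and 50 to 133 lower genes where 90 mpa C was absent throughout. There, without 90 mpa A or B as well, the 1 library left is assumed to vary like other groups, and 23 and 17 of the 112 lower genes were still called. It gave 2 to 46 higher and 0 to 38 lower genes against 60 mpa, and 3 to 57 higher and 0 to 31 lower genes at 3 hpa against 90 mpa. A fit of 90 mpa and 0 mpa alone found 222 genes higher and 11 lower, of which 220 and 11 were shared with the 584 and 168. With 5 shallow or low-complexity libraries left out (3 dpa B, 1 dpa B, 7 dpa C, 6 hpa C and 90 mpa C) 1223 genes were higher and 664 lower than at 0 mpa (538 and 165 shared), 83 higher and 106 lower than at 60 mpa (so more lower than higher, unlike 13 and 1), and 81 higher and 14 lower at 3 hpa than at 90 mpa. Without the filter 277 genes were lower than at 0 mpa (178 without 90 mpa C), 49 higher and 29 lower than at 60 mpa, and 26 higher and 25 lower at 3 hpa. DESeq2 gave 375 lower genes (298 without 90 mpa C), 65 higher and 32 lower than at 60 mpa, and 26 higher and 16 lower at 3 hpa. Without 90 mpa C and 7 dpa C 6 genes were lower than at 60 mpa and 2 lower at 3 hpa, and RLE scaling gave 2 lower than at 60 mpa. The causes were not tested. RLE scaling moved the median log2 fold change of all genes to -0.17, beside -0.09.

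Libraries of the same letter did not deviate together (r of deviations from the group mean, 90 mpa with 0 mpa, 0.0266, -0.0075 and 0.0114 for A, B and C). The labels do not say whether the letters pair libraries. These r values cannot decide it, since each group has few libraries and 90 mpa C is shallow. A replicate block gave 563 higher and 190 lower genes at 90 mpa against 0 mpa, 484 and 110 without 90 mpa C, 14 and 2 against 60 mpa, and 4 and 1 at 3 hpa against 90 mpa. Of 155 named genes called at 90 mpa 105 were called without each library in turn and 95 under each alternative with a value. Genes named by the rule had to be called without 90 mpa C too, so these counts were partly set by the choice. They do not describe all calls: 308 of the 584 higher genes stayed called without 0 mpa A, and 43 of the 168 lower genes without 90 mpa B. Depth limits the negative values: 1 read in 90 mpa C is 3.02 CPM, against 0.194 to 0.252 CPM in the other 5 libraries.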

Other observations

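Further genes that met the threshold with and without 90 mpa C, chosen after their values were seen, encode proteins of the cell surface and of polyamine synthesis. f2rl1.S, the protease-activated receptor that trypsin-like enzymes open, had 34.5, 37.0 and 21.1 CPM at 90 mpa, against 4.09, 1.51 and 1.94 CPM at 0 mpa (log2 fold change 3.67 ± 0.52, adjusted p = 7.13e-07 by edgeR). muc1.S, a transmembrane mucin, had 161, 245 and 640.5 CPM at 90 mpa, against 27.9, 23.2 and 21.6 CPM at 0 mpa (log2 fold change 3.81 ± 0.45 (3.02 without 90 mpa C), adjusted p = 7.73e-09). odc1.S, the first enzyme of polyamine synthesis, had 117, 66.3 and 87.6 CPM at 90 mpa, against 20.2, 27.2 and 25.3 CPM at 0 mpa (log2 fold change 1.90 ± 0.37, adjusted p = 0.000455). The groups did not overlap in these 3 genes. Serial identifiers without a gene name made up 102 of the 584 higher and 32 of the 168 lower genes.

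Of 14080 genes with reads in every 0 mpa library and a mean of at least 5 CPM there, 7 had no read in both 90 mpa A and B, beside 0 to 1 in any pair of libraries at 30 mpa, 60 mpa or 3 hpa, 0 in 6 hpa A and B, 2 to 5 at 1 dpa, 23 to 52 at 3 dpa and 17 in 7 dpa A and B.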
